A study of Capra hircus with 6 samples.

Results

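The spliceosomal and RNA-binding genes described here were the 46 genes, of 27271 in the deposited tables, whose symbol begins with SRSF and a digit, HNRNP, SNRP, SF3A or SF3B and a digit, or PRPF and a digit. They comprised 10 SR proteins, 13 heterogeneous nuclear ribonucleoproteins (hnRNPs), 5 Sm and other small nuclear ribonucleoprotein (snRNP) proteins, 8 SF3A and SF3B subunits and 10 PRPF factors. The rule uses symbols and no measured value. A further 32 genes carry a spliceosome protein description but no symbol in the table, 12 of them with a count, and the rule does not take them.

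Poly(A) RNA-seq measured mRNA in goat intramuscular preadipocytes, which are fat precursor cells isolated from the longissimus dorsi muscle of 3-day-old Jianzhou goats and used at the third passage. The NC group (3 libraries, genotype labelled WT) received a negative control siRNA. The Si-LIPG group (3 libraries, genotype labelled LIPG Knock down) received siRNA against LIPG, which encodes endothelial lipase. Both groups were transfected by lipofection in 6-well plates, and both were then kept for 48 h in an induction medium with 50 μmol/L oleic acid for adipose differentiation. LIPG itself had 0, 2 and 0 counts in NC 1, 2 and 3 and 0, 2 and 2 counts in Si-LIPG 1, 2 and 3, too few to check the group labels. The study's methods speak of biological replicates but do not say whether libraries came from separate goats, so p-values measure the spread between these libraries.

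Introns are removed from pre-mRNA by the spliceosome, which assembles on each intron from the U1, U2, U4/U6 and U5 snRNPs. The Sm proteins form a ring on most of the snRNAs, SF3A and SF3B are parts of the U2 snRNP that bind at the branch point, and the PRPF factors act in several snRNPs and in the activation of the complex. SR proteins mostly favour the use of exons they bind, hnRNPs package nascent transcripts and often counteract them, and together they shape alternative splicing, including that of adipogenic transcripts.

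Depth differed between the groups. Each library held 36451898 to 52638817 reads in all, but the reads counted on genes were few: 524776 to 703680 in the NC libraries and 864882 to 1051230 in the Si-LIPG libraries. That share of all reads was 1.31% ± 0.279 in NC and 2.44% ± 0.566 in Si-LIPG (mean ± SD, n = 3 each). It was higher in every Si-LIPG library, with p = 0.1 in an exact two-sided permutation test, the smallest p that 3 against 3 libraries allow. The mitochondrial gene ND6 is encoded on the strand opposite to the other mitochondrial protein genes. Per length, its counts were 54.2 to 99.3 times the median of those 12 genes in NC and 22.6 to 49.8 times in Si-LIPG. The library protocol keeps strand and the strand setting of the counting is not given in the sources used here: if the setting took antisense reads, the levels and fold changes below would be those of antisense or neighbouring transcripts, and this was not tested. The TMM factor (the trimmed-mean scaling of edgeR) was 0.601, 0.949 and 0.927 in NC 1, 2 and 3 and 1.06, 1.31 and 1.37 in Si-LIPG 1, 2 and 3. It was thus higher in every Si-LIPG library, and a higher factor lowers the normalized CPM. NC 1 stood apart, with the fewest reads on genes and the lowest factor. Most mesenchymal markers were counted in every library, among them COL1A1, COL1A2, VIM and PDGFRA, and the summed FPKM of the 12 markers found was 3361 to 7068 in NC and 9997 to 10678 in Si-LIPG. DLK1, a defining preadipocyte marker, had no count in any library. The sum of 7 muscle markers, carried mostly by DES and MYH3, was 46.5 to 74.2 in NC and 83.4 to 94.4 in Si-LIPG. The 8 adipocyte markers summed to 10.1 to 45.8 and 20.1 to 47.9, with LPL at 0 throughout, the 5 immune markers to 12.8 to 28.8 and 13.1 to 17.3, with PTPRC and ITGAM at 0, and the 5 endothelial markers to at most 2.87, with KDR, TEK and CDH5 at 0. In bulk RNA, fewer cells of a type and less RNA per cell cannot be told apart, and the part of these differences in the results below was not tested.

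Levels per length, as the deposited FPKM values, placed most splicing genes well above the typical gene. Their median over the 6 libraries' means was 32.0 FPKM, against 5.38 FPKM for the 14848 genes with any count. By class, the median was 100 FPKM for the hnRNPs, 52.0 for the SR proteins, 31.0 for SF3A and SF3B, 16.6 for the PRPF factors and 7.22 for the Sm and snRNP proteins. SRSF3, the smallest SR protein and a factor in mRNA export, led all members with 239, 589 and 656 FPKM in NC 1, 2 and 3 and 490, 1064 and 1109 FPKM in Si-LIPG 1, 2 and 3. It lay above 99.3% of genes with a count, on an annotated length of 375 bp. The groups overlapped, because Si-LIPG 1 was below NC 2 and NC 3. HNRNPAB followed with a mean of 235 FPKM, then HNRNPH3 (154), HNRNPUL1 (153), SRSF10 (151) and SNRPD1 (145). At the lower end stood SNRPN, the imprinted relative of the Sm protein SNRPB, with 1.35 FPKM, above 22.7% of genes with a count. SNRPB2, a U2 snRNP protein, had a mean of 2.51 FPKM, SRSF12 5.13 and SNRPB 7.22. HNRNPH3, HNRNPUL1, SRSF10 and SNRPD1, which follow each other in the order of means, had ranges over the 6 libraries that overlapped.

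**Figure D1:**
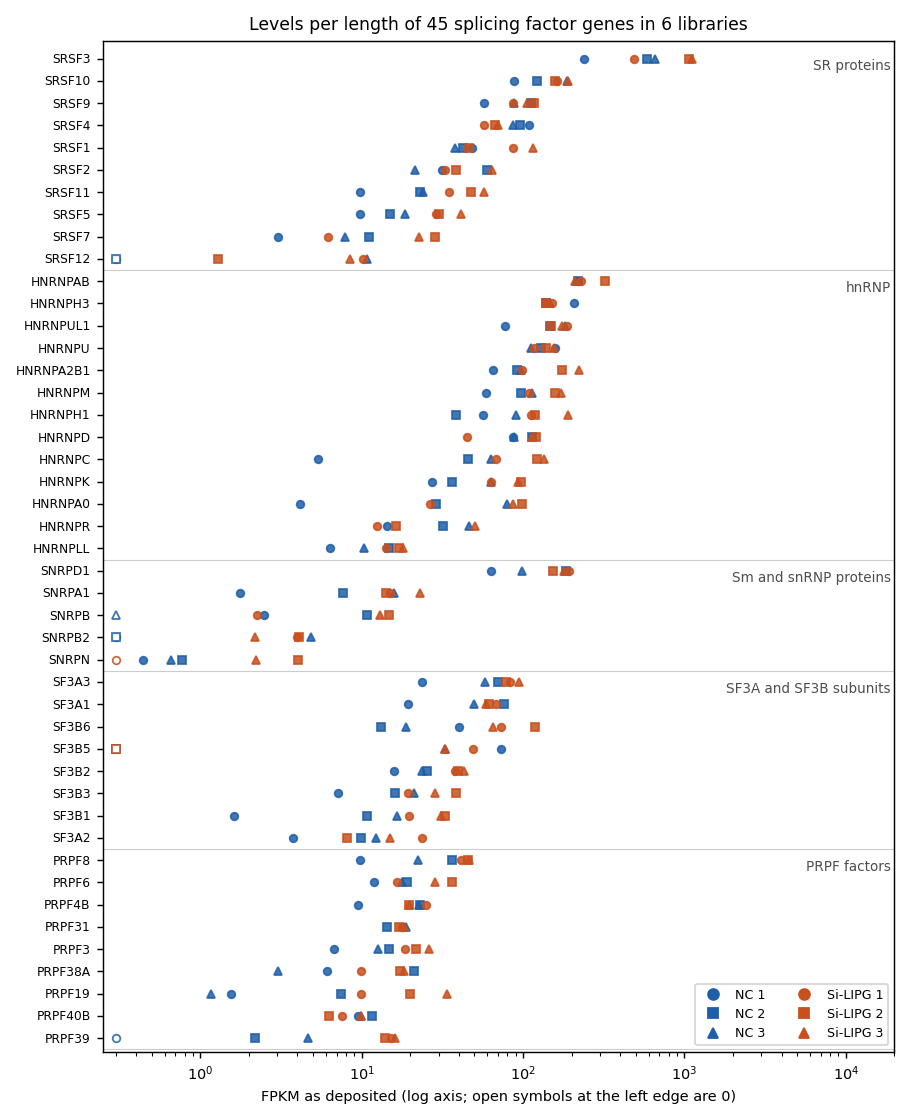
Deposited FPKM values (log axis) of 45 of the 46 genes in each of the 6 libraries, NC in blue and Si-LIPG in orange, grouped by class and ordered by mean level. Open symbols at the left edge are values of 0. SRSF3 sits highest at 239 to 1109 FPKM, and NC 1 is the lowest filled symbol for many genes, such as SF3B1 and HNRNPC.

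Summed over all 46 genes, the reads were higher in Si-LIPG or level, depending on the scale. They received 1869, 2822 and 3415 reads in NC 1, 2 and 3 and 4470, 6356 and 7290 reads in Si-LIPG 1, 2 and 3. In CPM, the usual scaling of counts to a fixed number of reads, taken over all reads of the library, this was 35.5 (95% exact binomial interval 33.9 to 37.2), 66.3 (63.9 to 68.8) and 74.1 (71.6 to 76.6) in NC, and 93.1 (90.4 to 95.8), 170 (166 to 174) and 200 (195 to 205) in Si-LIPG. Every Si-LIPG library was above every NC library, and the means differed 2.63-fold (58.6 ± 20.4 against 154 ± 55.2, SD, n = 3). As a share of the reads counted on genes, the sum was 0.356%, 0.469% and 0.485% in NC and 0.517%, 0.647% and 0.693% in Si-LIPG, a 1.42-fold difference of means with no overlap. After TMM normalization the summed CPM was 6060, 5083 and 5382 in NC and 5044, 5179 and 5325 in Si-LIPG. Those groups overlapped, and their means of 5508 ± 501 and 5182 ± 141 had a ratio of 0.941. Intervals cover counting error only and take reads as independent, although 66.7% of the 78 member values between 1 and 20 counts were even numbers, beside 65.8% over all genes.

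**Figure D2:**
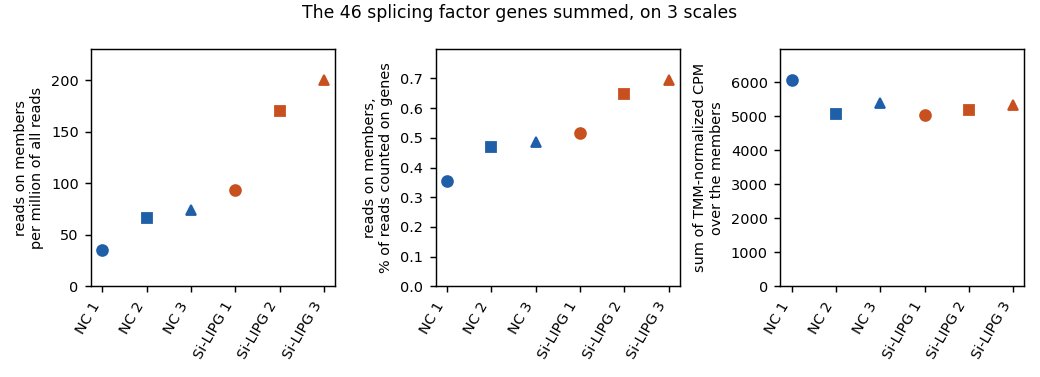
Reads on the 46 genes in each library on 3 scales, each axis starting at 0: as CPM of all reads, as a percentage of reads counted on genes, and as the sum of TMM-normalized CPM. Si-LIPG libraries (orange) lie above NC libraries (blue) on the first and second scales, and the groups overlap on the last, where NC 1 is highest at 6060.

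Si-LIPG was compared with NC by edgeR's quasi-likelihood test on counts. Of the 46 genes, 43 passed the filter on low counts, and SRSF12, SF3B5 and SNRPN did not. The filter level of 12.75 CPM, taken before TMM, was reached in all 6 libraries by 30 of the 43. It was reached in all Si-LIPG but not all NC libraries by 9, and in all NC but not all Si-LIPG libraries by 0. Entry through the group where a gene is high favours a difference without fixing it, so the counts below describe the genes that passed. HNRNPLL, at the filter level in 3 Si-LIPG and 2 NC libraries, had a log2 fold change of 0.10 with overlapping groups. At an adjusted p under 0.05, 1 of the 43 (2.33%), SRSF4, differed, against 6.51% of all 6574 genes tested. At an unadjusted p under 0.05 with a fold over 1.5, 4 were higher in Si-LIPG (9.30%, against 7.83% of all genes) and 2 were lower (4.65%, against 12.9%). The TMM-normalized CPM did not overlap between groups for 8 higher genes (18.6%, against 15.2%) and 6 lower genes (14.0%, against 13.4%). The median log2 fold change was 0.32 for the members and 0.16 for all genes tested. Single libraries moved these counts. Without NC 3 there were 2 members at an adjusted p under 0.05 (6.81% of all genes). Without NC 1, NC 2, Si-LIPG 2 or Si-LIPG 3 there were 0 (3 to 5 at an unadjusted p under 0.05), as over all genes in those fits. Without Si-LIPG 3 there was 1 higher (3.59% of all genes), and without NC 1 or Si-LIPG 2 there was 1 lower (8.95% and 9.75%).

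Scaling to all reads in place of TMM moved the fold changes up. The median log2 fold change became 1.67 for the members and 1.58 for all genes, and the log2 fold change was above 0 for 43 of the 43 members, from 0.36 to 3.59. On that scale 8 members passed an adjusted p under 0.05 in edgeR (18.6%, against 11.4% of all genes), among them HNRNPA2B1, HNRNPH1, HNRNPK, PRPF19, PRPF39, SF3B6 and SF3B2. The unadjusted criterion took 27 members as higher (62.8%, against 46.1%) and 0 as lower, and 31 had groups that did not overlap (72.1%, against 51.9%). The split of calls was therefore 4 higher and 2 lower after TMM, and 27 higher and 0 lower per all reads. Whether the cells or the libraries differed in how much of the sequence fell on genes cannot be told apart.

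**Figure D3:**
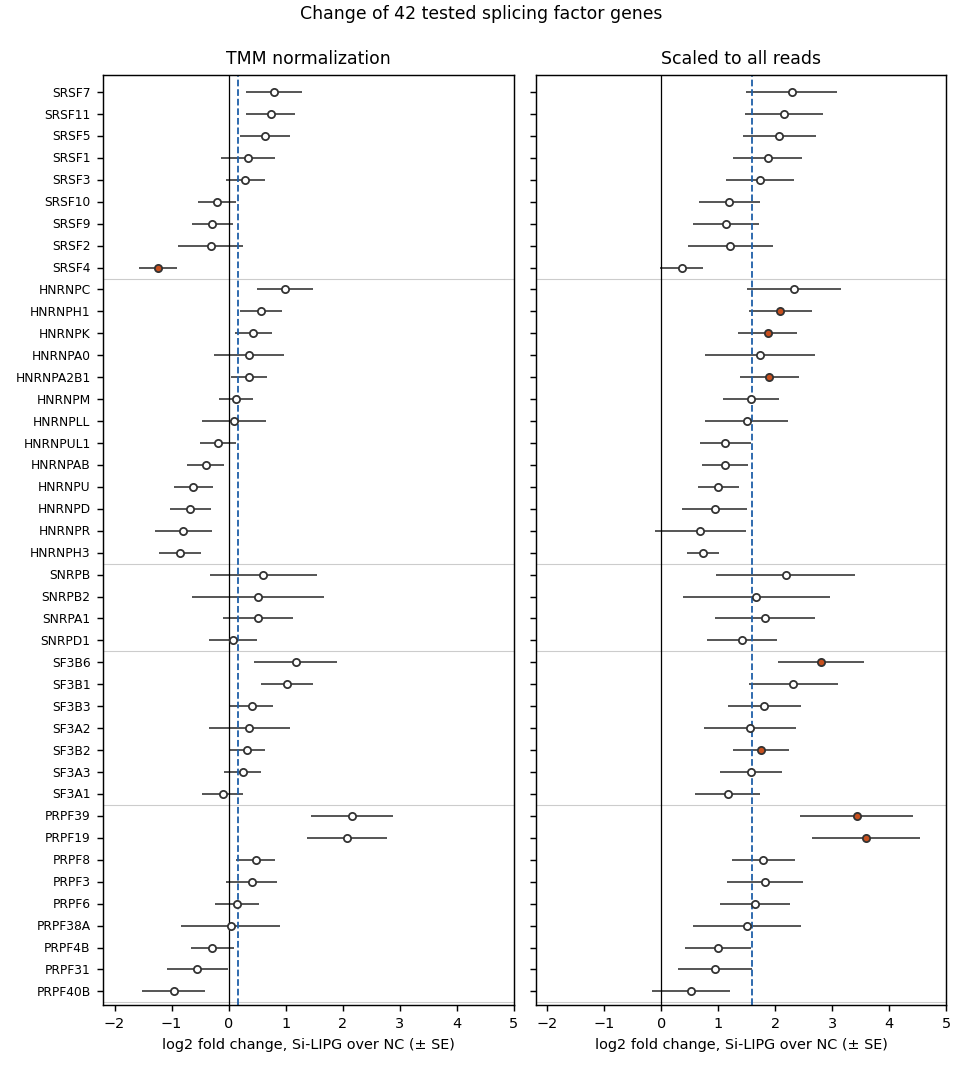
Log2 fold change of Si-LIPG over NC (± SE, edgeR) for 42 of the 43 tested genes after TMM normalization (left) and with counts scaled to all reads (right). Filled symbols have an adjusted p under 0.05, and the dashed line is the median of all genes tested (0.16 and 1.58). SRSF4 is the filled symbol on the left, and PRPF39 and PRPF19 lie farthest to the right in both panels, where they are filled on the right.

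Among the SR proteins, SRSF4, which binds exonic splicing enhancers, fell after TMM normalization. Its CPM was 597, 331 and 306 in NC 1, 2 and 3 and 178, 171 and 173 in Si-LIPG 1, 2 and 3. All Si-LIPG values lay below all NC values, within a narrow band, while NC 1 was far above NC 2 and NC 3. The means were 411 ± 161 and 174 ± 3.70 CPM (SD, n = 3), a log2 fold change of -1.23 (SE 0.33) with an edgeR adjusted p of 0.0420, and DESeq2 gave an adjusted p of 0.00699. The counts themselves were nearly level, at 184, 184 and 194 in NC and 158, 210 and 237 in Si-LIPG. As CPM of all reads SRSF4 had 3.50, 4.32 and 4.21 in NC and 3.29, 5.62 and 6.50 in Si-LIPG. On that scale its groups were not separate, with a log2 fold change of 0.36, the lowest of the 43 members. Without NC 1 the TMM log2 fold change was -0.89 with an edgeR adjusted p of 0.105, and the adjusted p also exceeded 0.05 without NC 2 (0.0630), Si-LIPG 2 (0.250) or Si-LIPG 3 (0.253), and without the filter on low counts (0.0537).

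The other SR proteins did not pass the adjusted threshold. SRSF7, which also serves in mRNA export, had the highest log2 fold change of the class, 0.80 (SE 0.49, edgeR adjusted p 0.394), from 25.9, 61.2 and 44.1 CPM in NC and 30.5, 115 and 87.7 CPM in Si-LIPG. Si-LIPG 1 lay inside the NC range. SRSF11 and SRSF5 had groups that did not overlap, with 31.1 ± 7.31 against 52.8 ± 6.84 CPM and 31.4 ± 4.19 against 49.4 ± 6.94 CPM, and log2 fold changes of 0.74 and 0.64. SRSF9 was separated in the other direction, 70.2 ± 9.43 against 57.7 ± 4.49 CPM (log2 fold change -0.28 after TMM and 1.14 per all reads). SRSF3, the most abundant per length, had 152, 240 and 273 CPM in NC and 179, 319 and 319 CPM in Si-LIPG, which overlapped, with a log2 fold change of 0.29 (SE 0.34). SRSF10, known as a splicing repressor when dephosphorylated, had 107, 95.5 and 150 CPM against 113, 90.4 and 104 CPM. Its log2 fold change of -0.20 (SE 0.33) turned to 1.19 per all reads. SRSF1, a widely studied enhancer-binding factor, had 61.6, 34.2 and 31.5 CPM in NC and 63.2, 27.7 and 65.7 CPM in Si-LIPG, with full overlap.

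The 13 hnRNPs were all tested, and 0 passed an adjusted p under 0.05 in edgeR or in DESeq2, with 1 at an unadjusted p under 0.05. Their log2 fold changes ran from -0.85 to 0.99 around a median of 0.10. HNRNPH3, a member of the HNRNPH and HNRNPF family that binds G-rich runs, carried 12.0% of all reads on the 46 genes. It had 1560, 668 and 722 CPM in NC 1, 2 and 3 and 654, 493 and 479 CPM in Si-LIPG 1, 2 and 3. NC 1 was by far the highest library, and the lowest NC value exceeded the highest Si-LIPG value by a small margin. The log2 fold change was -0.85 (SE 0.37), with an unadjusted p of 0.0346 and an adjusted p of 0.193 in edgeR, and without NC 1 it was -0.38. As CPM of all reads HNRNPH3 was higher in every Si-LIPG library, at 9.14, 8.71 and 9.94 in NC and 12.1, 16.2 and 18.0 in Si-LIPG (log2 fold change 0.73).

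HNRNPC, which binds uridine tracts in nascent transcripts, was at the other end of the class. It had 9.73, 52.2 and 74.1 CPM in NC and 70.0, 103 and 110 CPM in Si-LIPG, so Si-LIPG 1 fell just below NC 3. The log2 fold change was 0.99 (SE 0.49, edgeR adjusted p 0.273), and NC 1, with 3 counts, was the lowest library by far. HNRNPU, the scaffold attachment factor of nuclear chromatin, and HNRNPD, which binds AU-rich elements in mRNA, were lower without overlap after TMM. HNRNPU had 736, 382 and 337 CPM in NC and 313, 303 and 324 CPM in Si-LIPG. HNRNPD had 198, 166 and 131 CPM in NC and 58.7, 130 and 118 CPM in Si-LIPG, the highest Si-LIPG value almost touching the lowest NC value. Their log2 fold changes of -0.62 and -0.67 had edgeR adjusted p-values of 0.332 and 0.321. Per all reads both were above 0 (1.00 and 0.94), HNRNPU without overlap, and with 1 library left out HNRNPU came as near to 0 as -0.22 after TMM. HNRNPAB, an RNA-binding protein also known to bind DNA, and the most abundant hnRNP per length, had 383, 243 and 241 CPM in NC and 227, 263 and 164 CPM in Si-LIPG (log2 fold change -0.40, SE 0.33). HNRNPA2B1, HNRNPH1 and HNRNPK, which bind A- and G-rich, G-rich and C-rich RNA in turn, were the 3 hnRNPs past the adjusted threshold per all reads, with log2 fold changes of 1.89, 2.09 and 1.87 there. After TMM their groups overlapped, with log2 fold changes of 0.35, 0.57 and 0.43. HNRNPM had nearly equal means of 266 ± 33.8 and 292 ± 31.6 CPM.

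Of the 5 Sm and snRNP proteins, 4 were tested, and 0 passed an adjusted p under 0.05 or an unadjusted p under 0.05 in edgeR, nor an adjusted p under 0.05 in DESeq2. SNRPD1, part of the Sm ring, had 38.9, 72.0 and 39.4 CPM in NC and 67.7, 44.0 and 49.7 CPM in Si-LIPG, with a log2 fold change of 0.08 (SE 0.42). SNRPB, another ring protein, had 4, 20 and 0 counts in NC and 6, 45 and 42 in Si-LIPG, a log2 fold change of 0.61 with an SE of 0.94. SNRPA1, which sits with SNRPB2 on the U2 snRNA, had 6.48, 18.0 and 37.8 CPM in NC and 31.6, 24.4 and 38.0 CPM in Si-LIPG. All 4 had overlapping groups. The lowest library of SNRPA1, NC 1, had 6.48 CPM from 2 counts, and those of SNRPB and SNRPB2 had 0. SNRPN, not tested, had 1, 2 and 2 counts in NC and 0, 17 and 10 counts in Si-LIPG.

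In the U2 snRNP subunits SF3A and SF3B, 0 of the 7 tested passed an adjusted p under 0.05 in edgeR or DESeq2, and 1, SF3B1, met the unadjusted criterion. SF3B1 contacts the branch point and is often mutated in blood disorders. It had 6, 46 and 83 counts in NC 1, 2 and 3 and 121, 227 and 231 counts in Si-LIPG 1, 2 and 3, or 19.5, 82.9 and 131 CPM against 137, 185 and 169 CPM. The groups were separate, but by a small gap between NC 3 and Si-LIPG 1, and NC 1 was much the lowest. The log2 fold change was 1.02 (SE 0.46, edgeR adjusted p 0.220) and 0.59 without NC 1 or 1.59 without NC 3. SF3B2, which binds upstream of the branch point, was steady within groups, at 104, 106 and 101 CPM in NC and 141, 122 and 126 CPM in Si-LIPG. Its groups did not overlap, and the log2 fold change was 0.32 (SE 0.31). SF3B6, a small subunit that lies next to the branch adenosine, had the largest log2 fold change of the class, 1.18 (SE 0.73), from 8, 3 and 5 counts in NC and 24, 44 and 26 in Si-LIPG. Its CPM overlapped, because 25.9 CPM in NC 1 exceeded 19.0 CPM in Si-LIPG 3, and without NC 1 the log2 fold change was 1.99. SF3A3 and SF3A1, the most abundant subunits per length, had log2 fold changes of 0.25 and -0.10, with overlap in both.

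Of the 10 PRPF factors, 3 were higher at the unadjusted criterion (7.83% of all genes were), and 0 of the 10 passed an adjusted p under 0.05 in edgeR or DESeq2. PRPF39 and PRPF19 were counted so little in NC that each reached the filter level in 1 NC library, but in 3 Si-LIPG libraries. PRPF39, a factor associated with the U1 snRNP, had 0, 4 and 10 counts in NC 1, 2 and 3 and 40, 42 and 52 counts in Si-LIPG 1, 2 and 3. In CPM this was 0, 7.20 and 15.8 against 45.1, 34.2 and 38.0, so the lowest Si-LIPG library was above the highest NC library. The log2 fold change was 2.16 (SE 0.72, edgeR adjusted p 0.0865), between 1.72 and 3.12 when any 1 library was left out, and without NC 3 the adjusted p was 0.0467, within a range of 0.0467 to 0.272. With no filter on low counts the edgeR adjusted p was 0.0481 for PRPF39 and 0.0438 for PRPF19.

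PRPF19, the ubiquitin ligase at the core of a complex that activates the spliceosome, had 2, 11 and 2 counts in NC and 21, 48 and 87 counts in Si-LIPG. The CPM values were 6.48, 19.8 and 3.15 against 23.7, 39.1 and 63.5, with no overlap and a wide spread within Si-LIPG. Its log2 fold change was 2.07 (SE 0.70, edgeR adjusted p 0.0908) and 3.23 without NC 2. PRPF39 and PRPF19 were higher on both scales, and per all reads their log2 fold changes were 3.43 and 3.59 with edgeR adjusted p-values of 0.0497 and 0.0462.

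PRPF40B, a factor associated with the U1 snRNP, had the lowest log2 fold change among the PRPF factors, -0.97 (SE 0.56, edgeR adjusted p 0.359). It had 42.2, 32.4 and 28.4 CPM in NC and 19.2, 13.0 and 19.7 CPM in Si-LIPG, which did not overlap, yet the counts were 13, 18 and 18 against 17, 16 and 27. PRPF8, the large protein at the catalytic centre of the spliceosome and the most abundant PRPF factor per length, had 130, 306 and 192 CPM in NC and 316, 284 and 278 CPM in Si-LIPG (log2 fold change 0.47, SE 0.34). Among the U4/U6.U5 proteins, PRPF6 had a log2 fold change of 0.15, PRPF3 of 0.40 and PRPF31 of -0.55. PRPF3 was separated between groups (31.2 ± 5.05 against 41.7 ± 3.22 CPM), and PRPF6 and PRPF31 overlapped. The kinase PRPF4B and the activation factor PRPF38A had log2 fold changes of -0.29 and 0.04, with overlap. That of PRPF38A ran from -0.46 to 0.99 when 1 library was left out, and those of PRPF31 and PRPF4B were 0.94 and 1.00 per all reads.

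**Figure D4:**
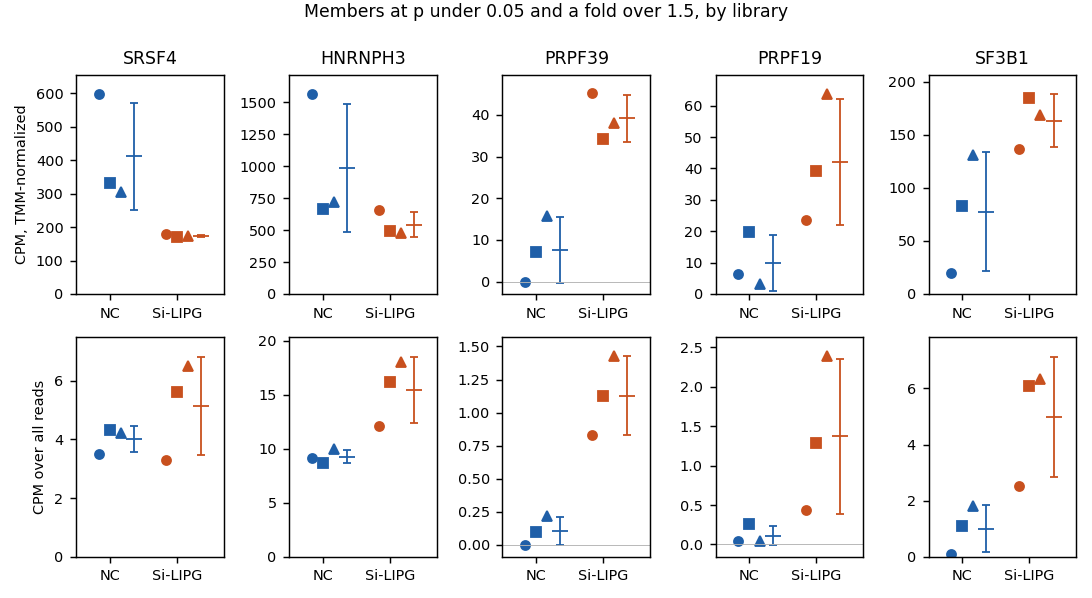
Of the 6 members at an unadjusted p under 0.05 with a fold over 1.5, 5 are shown by library, as TMM-normalized CPM (top) and as CPM over all reads (bottom), with the mean ± SD (n = 3) beside each group. SRSF4 and HNRNPH3 are lower in Si-LIPG in the top row and not in the bottom row, and PRPF39, PRPF19 and SF3B1 are higher in both.

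Across the 46 genes the libraries were ordered much as by depth. The first principal component of the members' log2 CPM after TMM held 54.3% of the variance, with NC 1 at -6.31, NC 2 at -1.55, NC 3 at 0.465 and the Si-LIPG libraries at 1.77, 2.81 and 2.81. The component set NC 1 apart more than it separated the groups, and NC 3 lay nearer to Si-LIPG 1 than to NC 2. Much the same order held for the share of reads counted on genes, and whether that share moves the component was not tested.

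Other splicing genes were taken from 6 lists that name 154 genes outside the rule, of which 120 were in the tables and 93 were tested. At an adjusted p under 0.05 in edgeR, 2 differed (2.15%, against 6.51% of all genes), and 5 in DESeq2 (4.01% of all genes). DDX39B, an RNA helicase that acts in spliceosome assembly and mRNA export, rose from 25.9, 72.0 and 52.0 CPM in NC to 123, 164 and 148 CPM in Si-LIPG, with no overlap. Its log2 fold change was 1.49 (SE 0.39, edgeR adjusted p 0.0400) and it was also higher per all reads (2.87). PQBP1, a spliceosomal protein that binds polyglutamine, fell from 687, 292 and 353 CPM to 222, 149 and 133 CPM, a log2 fold change of -1.39 (SE 0.37, edgeR adjusted p 0.0415). As for SRSF4, its counts were nearly level, at 212, 162 and 224 in NC and 197, 183 and 182 in Si-LIPG, and per all reads its log2 fold change was 0.14. The edgeR adjusted p of DDX39B exceeded 0.05 without NC 1 (0.0937), NC 2 (0.0594), NC 3 (0.0642), Si-LIPG 2 (0.243) or Si-LIPG 3 (0.253), and that of PQBP1 without NC 1 (0.113), NC 2 (0.0594), Si-LIPG 2 (0.250) or Si-LIPG 3 (0.260).

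By the unadjusted criterion 4 of the 93 were higher (4.30%, against 7.83% of all genes) and 5 lower (5.38%, against 12.9%), around a median log2 fold change of 0.06, against 0.16 for all genes. In the list of U1, U2 and U4/U6.U5 factors, 1 of 20 was higher (EFTUD2, the U5 GTPase) and 1 lower (SNRNP40, a U5 protein). The PRPF19-associated, B and C complex proteins and RNA helicases had 0 higher and 2 lower of 26, namely PQBP1 and BUD31, a catalytic-stage protein with a log2 fold change of -1.47 (edgeR adjusted p 0.0578, DESeq2 adjusted p 0.0290) after TMM, -0.80 without NC 1 and 0.14 per all reads. Exon junction and export factors had 1 higher, DDX39B, and 1 lower, its paralogue DDX39A, of 11. Of the 5 tested SMN complex genes, which load Sm proteins onto snRNAs, STRAP was higher, with a log2 fold change of 1.40 (edgeR adjusted p 0.0502) and 0 were lower. Among the 19 alternative splicing regulators MBNL1 was higher and 0 were lower, and among the 12 SR kinases and SR-like factors 0 were higher and CLK2, a kinase of SR proteins, was lower.

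Neighbouring genes bear on these counts for the same reason of strand. In the RefSeq annotation of assembly ARS1.2, matched by symbol for all 46 genes, 5 overlapped a neighbour, 19 had one within 1 kb and 22 had none. The annotation as used here gave no strand, so neighbours of either strand were counted together. An overlap was thus present for 10.9% of the members, against 21.5% of 13165 genes matched once by name. A neighbour within 1 kb without overlap was present for 41.3% of the members, against 20.04% of those genes. For either kind together the shares were 52.2% and 41.5%, so members overlapped a neighbour less often, and the excess lay in neighbours without overlap. The median level was 33.2 FPKM for members with a neighbour and 31.0 FPKM for those without, whereas over all genes it was 5.36 and 1.87 FPKM. HNRNPH3 overlapped PBLD, PRPF39 lay within 1 kb of FKBP3 and SF3B1 of COQ10B, and SRSF4, PRPF19 and SRSF3 had no neighbour in that window. Whether reads of a neighbour or of an opposite strand were counted for a member was not tested.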

How the data were processed

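RNA-seq of 3 NC and 3 Si-LIPG libraries of goat intramuscular preadipocytes was analysed. The authors deposited counts of reads per gene for each library and, in 1 table, FPKM values for the same 27271 genes with gene names. Submitters' processing notes name fastp, HISAT2, SAMtools and HTSeq, and versions, genome build and strand setting are not given in the sources used here. The ratio of deposited FPKM to counts gave each gene length. The 5 rows per library that name no gene (mostly reads on no feature) entered only the total of all reads, and made up 97.1% to 99.0% of it.

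Members were found by symbol and joined to counts by Ensembl identifier. Members and gene lists were chosen with earlier results of these data known. Tests used edgeR 4.0.16 under R 4.3.3: filterByExpr with the groups (6574 genes, library sizes recomputed), TMM and the quasi-likelihood test, with Benjamini-Hochberg adjustment over all tested genes and a biological coefficient of variation of 40.5%. The study's methods name DESeq2 (here 1.42.0), run as an alternative, and limma 3.58.1 was run on log2 FPKM with pseudocounts of 1 and 0.1. The criterion of an unadjusted p under 0.05 and a fold over 1.5 is given beside the adjusted p. Log2 CPM used a prior count of 2. The edgeR fit was tested on simulated data. Replicates of a group differed beyond counting noise (chi-square over degrees of freedom, 4.21 to 12.5), and each was kept as a sample. Group labels came from sample titles.

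Genes named were those with an adjusted p under 0.05, the 2 most abundant by FPKM and the highest and lowest fold change of each class, those at the unadjusted criterion whose mean count was 20 or more, and, of the other splicing genes, the ones past the adjusted threshold or otherwise with the 2 smallest p-values in each direction. The values of 1 member are not reported here. Further genes (such as SRSF5, HNRNPU, PRPF3, EFTUD2 and MBNL1) were named after their values were seen.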

Additional observations from a re-analysis of the deposited data

How the results depend on the processing

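With RLE size factors, the counts of members and the direction and side of the adjusted threshold of the 24 genes named by rule were as after TMM. There, 6 other splicing genes were lower (13.2% of all genes), against 5 after TMM. Shares of all genes called stand in brackets below. Members at an adjusted p under 0.05, 1 after TMM (6.51%), numbered 0 with library sizes alone (1.87%) and 8 scaled to all reads (11.4%). Without a filter on low counts they numbered 2 (4.2%), PRPF39 and PRPF19, with SRSF4 lost. They numbered 0 with limma at either pseudocount and 0 with a covariate for the percentage of reads that fell on genes (0.0% each). Higher members (4 after TMM) numbered 16 with library sizes alone (24.2%), 27 per all reads (46.1%), 11 with limma at either pseudocount (23.0% and 19.0%) and 0 with the covariate (1.08%). Lower members (2 after TMM, 12.9%) numbered 0 with library sizes alone (6.01%), per all reads (0.0304%) and with limma (6.13% and 6.39%). With at least 10 counts in every library they numbered 1 (23.8%). With the covariate they numbered 2 (0.958%), but not the same 2 as after TMM, because HNRNPH3 had a log2 fold change of 0.14 there. The median log2 fold change of the members (0.32) was 0.86, 1.67, 0.093, 0.88, 0.89 and 0.048 with library sizes alone, all reads, at least 10 counts, limma with pseudocounts of 1 and 0.1, and the covariate, where all genes had 0.74, 1.58, 0.14, 0.76, 0.86 and 0.035. Unadjusted p-values under 0.05 stood behind the counts of 0: 16 members with library sizes alone, 11 with limma and 2 with the covariate. The cause of these differences was not tested.

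Of the other splicing genes (93 after TMM), 4 were higher and 5 lower after TMM. Higher genes numbered 13 with library sizes alone, 40 per all reads, 14 and 14 with limma at both pseudocounts and 1 with the covariate. The shares of all genes were 24.2%, 46.1%, 23.0%, 19.0% and 1.08%. In the same order 1, 0, 1, 1 and 0 were lower, beside 6.01%, 0.0304%, 6.13%, 6.39% and 0.958% of all genes. Without a filter or with at least 10 counts, 3 were lower (7.06% and 23.8%). Adjusted p under 0.05 was reached by 6 per all reads (11.4% of all genes), 5 without a filter (4.2%) and 5 in DESeq2 (4.01%), against 2 after TMM (6.51%). It was reached by 0 with limma (15 at an unadjusted p under 0.05) or the covariate (1), as over all genes.

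Leaving out 1 library at a time gave 0 to 2 members at an adjusted p under 0.05, 1 to 6 higher, 1 to 3 lower and a median of 0.070 to 0.30. For the other splicing genes it gave 0 to 4, 2 to 5 and 3 to 8. Over all genes the shares were 0.0% to 9.02%, 3.49% to 9.87% and 8.95% to 13.3%. Without NC 1 the members had 0, 4 and 1 and the median 0.070, and without Si-LIPG 3 they had 1 higher. Of the 43 members, 11 had a log2 fold change on both sides of 0 over these fits. Among the genes named by rule, directions turned for SNRPD1 without NC 1 (-0.069), NC 3 (-0.081) or Si-LIPG 1 (-0.17, the lowest of a range to 0.46), SF3A1 without NC 2 (0.26, the highest of a range from -0.38) or Si-LIPG 3 (0.015), SNRPB without NC 3 (-0.039, range to 2.28), SRSF10 without NC 3 (0.029, range from -0.33) and PRPF6 without Si-LIPG 2 (-0.083, range to 0.28).

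The sign turned for 9 of the 43 members with library sizes alone and for all 14 members below 0 per all reads. Among the genes named by rule it turned with library sizes alone for HNRNPAB (0.24), SF3A1 (0.39) and SRSF10 (0.37), and per all reads for SRSF4 (0.36), HNRNPAB (1.12), HNRNPH3 (0.73), PRPF40B (0.52), SF3A1 (1.16), SRSF10 (1.19), PQBP1 (0.14) and BUD31 (0.14). With at least 10 counts, SF3A1 became 0.13 and SRSF10 0.058. In limma with a pseudocount of 1 or 0.1, HNRNPAB became 0.19 and 0.19, SF3A1 0.57 and 0.58, and SRSF10 0.41 and 0.42. Under the covariate, which differs between the groups and so takes up part of the comparison, HNRNPAB (0.14), HNRNPH3 (0.14), SF3A1 (0.066) and BUD31 (0.028) turned up, and HNRNPC (-0.17), PRPF6 (-0.39), SNRPA1 (-0.082), SNRPB (-1.64), SRSF3 (-0.80) and SRSF7 (-1.16) turned down.

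The main fit did not pair libraries by replicate number, because the study's methods name no such block. Whether equal numbers mark a shared origin is not stated. The correlations of deviations between libraries of the same number were 0.210, 0.0639 and 0.105, and 4 of 6 libraries correlated best with their own number. With the replicate block, 6 members passed an edgeR adjusted p under 0.05 (14.1% of all genes, against 6.51% in the main fit). Among them were SRSF4 (0.000176), HNRNPH3 (0.00292), SF3B1 (0.0101), PRPF39 (0.0350), PRPF19 (0.0383) and HNRNPC (0.0482). By the unadjusted criterion 6 members were higher (10.4% of all genes) and 4 lower (13.2%). Of the other splicing genes, 6 passed the adjusted threshold.

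Depth limits the low members. Before TMM a count of 3 was worth 2.85 to 5.72 CPM, and after TMM the 3 counts of HNRNPC in NC 1 were 9.73 CPM. SRSF12, SF3B5, SNRPN, SNRPB2, SNRPB and PRPF39 had libraries at 0. The low and unequal share of reads on genes, the unknown strand setting and 3 libraries per group bound every comparison.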
